A study of Homo sapiens with 2 samples.

Results

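The 5 genes EREG, AREG, HBEGF, TGFA and NRG1 encode ligands of the epidermal growth factor (EGF) receptor family, and they were examined for HMGB2 regions inside the gene or within 5 kb of either end. HMGB2 is a DNA-bending chromatin protein of the high mobility group family. Of the 3156 regions in the 2 deposited lists, 4 lay within 5 kb of these genes. All 4 were broad regions inside NRG1, and no region of either list lay within 5 kb of EREG, AREG, HBEGF or TGFA.

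The regions came from chromatin immunoprecipitation followed by sequencing (ChIP-seq) in IMR90 cells, a human lung fibroblast line, with the same rabbit antibody to HMGB2 in both conditions. There were 2 libraries, 1 from cells infected with RAS and labelled senescent and 1 from growing cells labelled control. Both were taken at day 2 from cultures in 2% oxygen. The labels do not say which form of RAS was introduced or how the growing cells were handled. The authors compared the senescent with the growing library and deposited 1 list of narrow and 1 list of broad regions, with positions in hg19 and no read count, score or fold. The list names put senescent first, and only from this was it taken that the regions mark higher HMGB2 signal in senescent cells. The depth of the libraries is unknown, there was 1 library per condition, and no difference could be tested across replicates. Region lists hold no expression values, so neither the cell type nor the level of any ligand could be checked in them. A place without a region is one where no region was called, which at an unknown depth does not show that HMGB2 was absent.

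Ligands of this family are made as precursors in the cell membrane, and proteases of the ADAM family cut them to release the active factor. The released factor binds receptors of the ERBB family on the same or neighbouring cells and activates the RAS and ERK signalling pathway. AREG (amphiregulin) and TGFA (transforming growth factor alpha) bind the EGF receptor itself, whereas HBEGF (heparin-binding EGF-like growth factor) and EREG (epiregulin) also bind ERBB4. NRG1 (neuregulin 1) binds ERBB3 and ERBB4 and not the EGF receptor. AREG and EREG are known members of the senescence-associated secretory phenotype, the set of factors that senescent cells release. NRG1 is a very long gene with several alternative promoters.

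EREG and AREG are neighbours on chromosome 4 and are transcribed in the same direction. The bases just before their start sites are shown because a group of 5 broad HMGB2 regions lies on the same side of both genes, while no region was called at either promoter. The sequences are from RefSeq on GRCh38.p14, at chr4:74364895-74365144 and chr4:74444886-74445135, both on the forward strand and read 5′ to 3′ up to the base before the start. Capitals mark TATAAA, the core letters of a TATA box, and TGACGTCA, the cAMP response element.
EREG: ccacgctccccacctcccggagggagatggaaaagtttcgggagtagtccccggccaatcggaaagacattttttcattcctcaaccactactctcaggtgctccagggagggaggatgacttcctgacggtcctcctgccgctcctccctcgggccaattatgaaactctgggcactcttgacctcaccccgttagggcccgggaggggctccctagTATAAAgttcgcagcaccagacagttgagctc
AREG: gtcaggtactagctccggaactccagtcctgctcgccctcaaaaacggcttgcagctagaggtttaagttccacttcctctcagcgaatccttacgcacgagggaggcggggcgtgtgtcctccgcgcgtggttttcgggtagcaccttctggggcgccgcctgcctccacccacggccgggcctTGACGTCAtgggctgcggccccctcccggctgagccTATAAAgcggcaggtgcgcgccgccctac

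The letters TATAAA began 32 bases before the start of EREG and 29 bases before that of AREG. In either orientation they were present in 10.7% of the 35116 RefSeq promoter windows of 250 bases. The cAMP response element TGACGTCA, which reads the same on both strands, began 65 bases before the AREG start and was absent from the EREG window. It was present in 1.65% of all windows. Neither HBEGF nor either of the 2 TGFA windows held TATAAA or TGACGTCA. The letters TGANTCA, the site of the AP-1 transcription factor, were searched on both strands and were in none of the 5 windows, against 6.57% of all windows. None of the matches found overlapped another. The share of G and C was 58.0% for EREG, 65.2% for AREG, 76.4% for HBEGF, and 75.6 and 64.0% for the 2 TGFA windows, beside a median of 58.0%. The promoters of the 4 ligand genes without a region differed from each other in composition. No window of NRG1 was matched, so its promoters are not described. Composition could therefore not be compared with that of a gene that holds regions.

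EREG spans chromosome 4 from 75230860 to 75254468, and AREG from 75310854 to 75320726, with 56.4 kb between them. Neither list had a region in that gap. No broad region lay within 5 kb of EREG, where 0.376% of hg19 stretches as long as its window (33.6 kb) held one, nor of AREG, where the share was 0.223% for 19.9 kb. The windows of EREG and AREG also held no narrow region, beside 3.02 and 1.79% of such stretches. Most stretches of these lengths held no region, so the empty windows do not set these genes apart.

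The broad region nearest to both genes was the same one, at 74962037 to 74962673 of chromosome 4, 636 bp wide. It lay 268 kb below EREG and 348 kb below AREG, measured edge to edge toward lower coordinates. Both genes lay far nearer to a broad region than a typical stretch of their length, for which the median distance was 3554 kb for EREG and 3562 kb for AREG. Only 5.67% of stretches as long as EREG, and 7.08% of those as long as AREG, lay as near to a broad region. Both shares rest on the same region beside neighbouring genes, so they are not separate observations. That region was the last of 5 broad regions within 1 Mb of EREG, all on its lower side, at 268, 370, 492, 620 and 704 kb. They were 636, 1484, 1462, 3788 and 500 bp wide, so the one nearest to EREG was narrower than the next 3. No broad region lay within 1 Mb on the upper side of AREG. In the gene order of the RefSeq table, CXCL3, CXCL2, MTHFD2L and EPGN come before EREG, and BTC follows AREG. CXCL2 and CXCL3 are chemokine genes, and EPGN and BTC encode epigen and betacellulin, which are ligands of the EGF receptor too. The 5 broad regions lie on the same side of EREG as these chemokine genes. Whether they lie at chemokine genes was not analysed, so the short distances cannot be read as a trait of EREG and AREG.

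Narrow regions came closer to the pair than broad ones. Within 1 Mb of EREG there were 9 narrow regions, 7 on its lower side and 2 above AREG. The nearest to either gene lay at 75370865 to 75371129, 50.1 kb above AREG and 116 kb above EREG, and it stood late in the narrow list, at place 2724 of 2792. The next 2 lay 148 and 164 kb below EREG, at places 1995 and 401. The 5 farther ones on the lower side, 370 to 704 kb from EREG, lay inside 4 of the 5 broad regions and stood at places 4 to 24. The broad region nearest to EREG and AREG held no narrow region. Of the stretches as long as AREG, 9.30% lay as near to a narrow region, and of those as long as EREG, 19.9% did. The assembly hg19 carries a second, nearly identical copy of AREG, annotated as AREGB, a name that the RefSeq table of GRCh38.p14 lists as a synonym of AREG. The treatment of reads that match both copies is not given in the sources, so the empty window of AREG is uncertain for that reason, and the effect was not tested.

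**Figure D1:**
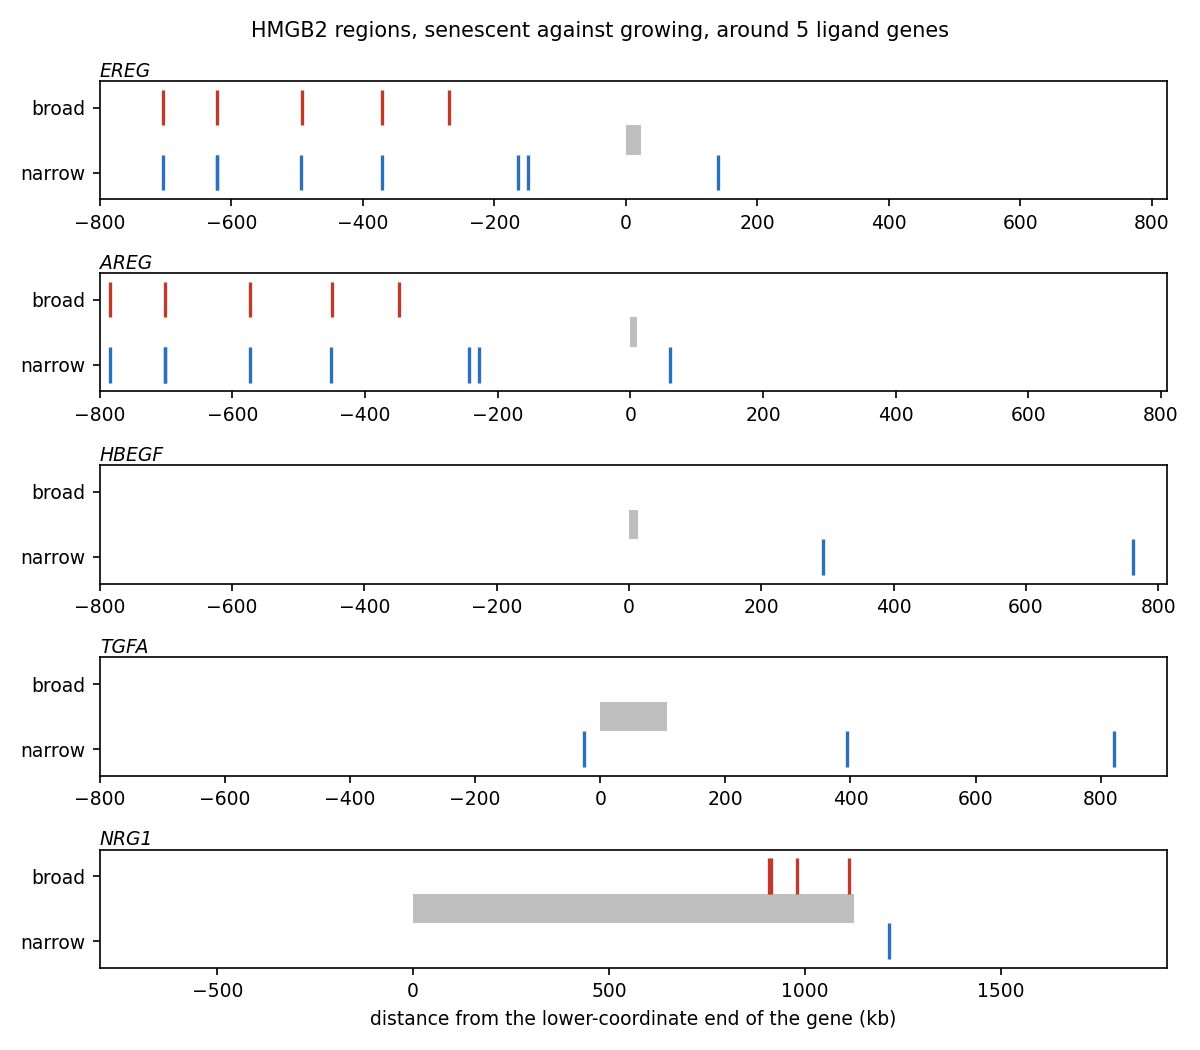
Position of broad (red) and narrow (blue) HMGB2 regions around each ligand gene, as distance from the lower-coordinate end of the gene in kb. The grey bar is the gene. The 4 red lines inside NRG1 are the only regions within 5 kb of any of the 5 genes. The red lines around EREG and around AREG are the same set on chromosome 4, on the lower side of both genes. The blue lines around these 2 genes are also shared and lie on both sides.

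HBEGF, at 139712428 to 139726188 of chromosome 5, encodes the ligand that also serves as the receptor of diphtheria toxin. No region lay within 5 kb of it, beside 0.268% (broad) and 2.13% (narrow) of stretches as long as its window (23.8 kb). The nearest broad region lay 1907 kb below it, at 137805250 to 137805750, and 31.8% of stretches as long as the gene lay as near to one. The nearest narrow region lay 279 kb above it, at 140005567 to 140005831, as near as in 38.1% of stretches. HBEGF was the gene of the 5 farthest from a narrow region.

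TGFA, at 70674412 to 70781147 of chromosome 2, had no region within 5 kb, beside 1.25% (broad) and 9.88% (narrow) of stretches as long as its window (117 kb). Its nearest narrow region, at 70647633 to 70647897, lay 26.5 kb below the gene, on the side of its 3′ end. This was the shortest distance to a narrow region among the 5 genes, and 13.1% of stretches as long as the gene lay as near. The nearest broad region lay 2685 kb above it, at 73466496 to 73466996, and 41.8% of stretches lay as near. TGFA was thus the nearest of the 5 genes to a narrow region and the farthest from a broad one.

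**Figure D2:**
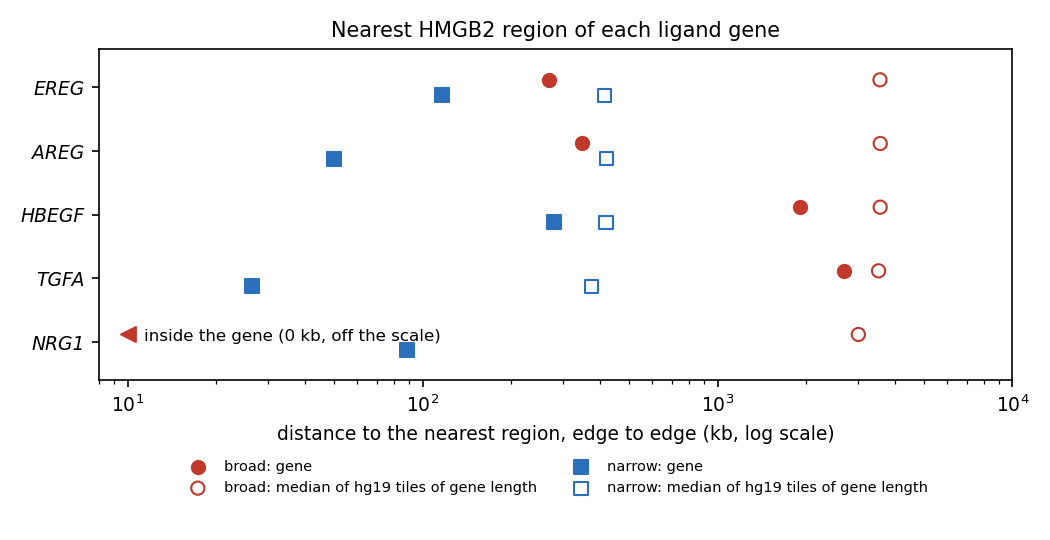
Distance in kb (log scale) from each ligand gene to the nearest broad region (red circles) and narrow region (blue squares), with the median over all hg19 stretches of the same length as open symbols. The triangle at the left edge stands for NRG1, whose nearest broad regions lie inside the gene. The median to a narrow region for stretches as long as NRG1 was 0 kb and is not drawn. For EREG and AREG the broad distances, 268 and 348 kb, lie left of the open circles at 3554 and 3562 kb.

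NRG1, at 31496820 to 32622558 of chromosome 8, is 1126 kb long and held 4 broad regions, the first at 32405892 to 32406520, with a width of 628 bp. The second, of 500 bp, followed at 32409798 to 32410298, only 3.28 kb further on. The third lay at 32477300 to 32477800 and the fourth at 32608394 to 32608894, also 500 bp wide each, after gaps of 67.0 and 131 kb. Within the full bounds used here, all 4 lay toward the 3′ end of the gene, which is transcribed toward higher coordinates. Because NRG1 has several alternative promoters, a region far from the lower end can still lie near a start inside the gene. The first began 909 kb from the lower end, after 80.8% of the gene length, and the fourth ended 13.7 kb before the upper end. The first 909 kb of these bounds, which make up most of the gene, held no region of either list. Together the 4 regions covered 2128 bp, or 0.187% of the window. Whether they overlap exons or alternative promoters of NRG1 was not analysed here, because no annotation of hg19 was used.

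Longer stretches hold a region more often, and NRG1 is the longest of the 5 genes. A broad region was held by 10.9% of stretches as long as its window (1136 kb), but 4 or more were held by only 0.221%, which is 6 of 2715 stretches. One of these 6 was the stretch with the NRG1 regions themselves. The NRG1 window held broad regions at 3.52 per Mb, with an exact Poisson 95% interval from 0.960 to 9.02, while the genome as a whole held 0.118 per Mb (0.106 to 0.130). These intervals cover counting error only and treat regions as independent, which the close pair at the start of the group may not be. NRG1 was singled out because it alone of the 5 genes held regions, and its interval does not allow for that choice. The genome value includes the 4 regions of NRG1. The genome value counts full chromosome lengths with assembly gaps, where no region can be called, and is low to that extent. The windows of the other 4 genes added up to 194 kb, where a count of 0 allows up to 15.5 broad regions per Mb (3 counts). This limit is above the NRG1 value, so at these gene lengths the 4 genes could not be shown to hold fewer regions per Mb than NRG1.

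**Figure D3:**
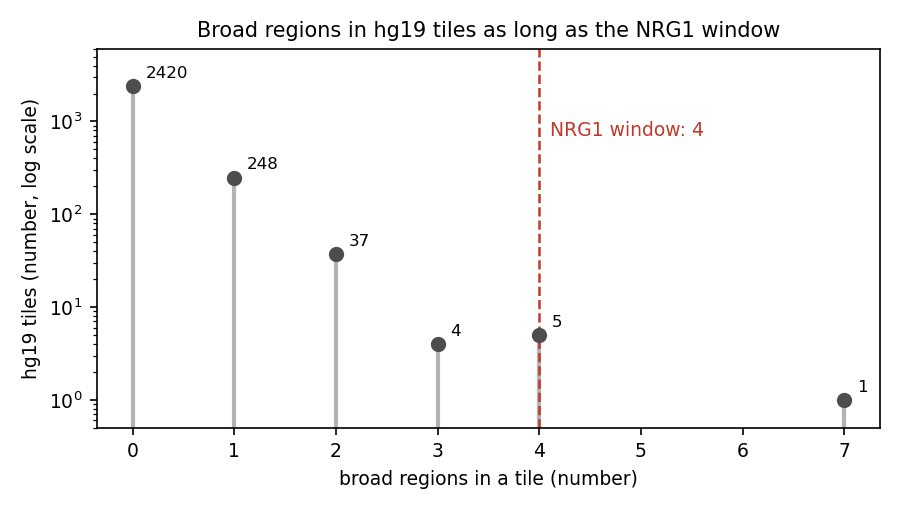
Number of hg19 stretches (vertical axis, log scale) by the number of broad regions in each, for stretches as long as the NRG1 window. Of the stretches, 2420 held no broad region, 248 held 1, 5 held 4 and 1 held 7. The dashed line marks the 4 regions of NRG1.

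Chromosome 8 had 20 broad regions, and NRG1, with 0.776% of the length of the chromosome in its window, held 4 of them. Without the NRG1 window the chromosome had 0.110 broad regions per Mb, close to the genome value. Band 8p12, a dark Giemsa band, held 5 broad regions, and the fifth lay 2.61 Mb above the end of NRG1. The only region of the band wider than 500 bp was the first one in NRG1. Band 8p12 also holds DUSP4, a phosphatase gene of ERK feedback, and none of its broad regions lay below NRG1, the side on which DUSP4 comes in the gene order.

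The NRG1 regions were at or near the smallest width of 500 bp, which was also the median of the 364 broad regions. Of all broad regions, 53 (14.6%) were wider than that, and of the 4 in NRG1, 1 was. At 628 bp the widest of NRG1 was exceeded by 49 of these 53, whose median was 1048 bp. The 4 regions stood at places 44, 172, 173 and 95 of the deposited list, counted in order along the gene, and what that order stands for is not stated. The 5 regions on the lower side of EREG stood at places 3 to 59.

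**Figure D4:**
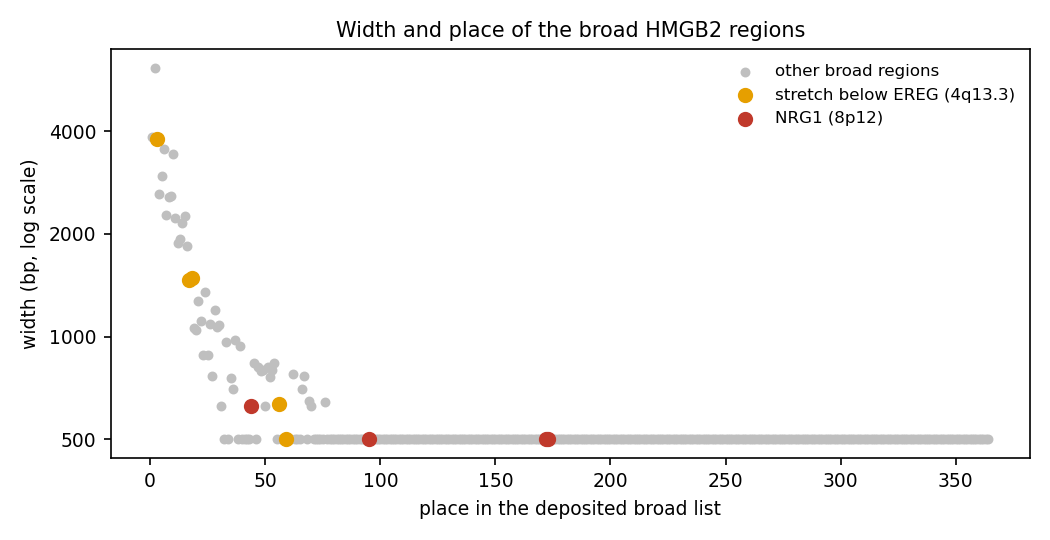
Width in bp (log scale) of the 364 broad regions against their place in the deposited list. The 4 regions in NRG1 (red) have widths of 500 to 628 bp at places 44 to 173, and the 5 regions below EREG (orange) have widths of 500 to 3788 bp at places 3 to 59.

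No narrow region lay within 5 kb of NRG1, although 58.8% of stretches as long as its window held at least 1. The count of 0 allows up to 2.64 narrow regions per Mb, which is above the genome value of 0.902, so fewer narrow regions than elsewhere could not be shown. The nearest narrow region, at 32711044 to 32711308, lay 88.5 kb above the end of the gene and was the only one within 1 Mb. None of the 4 broad regions of NRG1 held a narrow region, whereas 100 of the 364 broad regions did. This difference rests on 4 regions and was not tested.

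Stretches of the genome with as many broad regions as NRG1 were few. Taking windows as long as that of NRG1 from each broad region onward, 6 separate stretches held 4 or more broad regions. A stretch in 20q13.13 held 8 and that in 4q13.3, below EREG and AREG, held 5. NRG1 and the stretches in 8p21.2, 11q22.2 and 22q12.2 held 4 each. NRG1 had the smallest summed width of the 6 (2128 bp, against 3332 to 7870 bp) and the fewest regions over 500 bp (1, against 2 to 4). Its regions were spread over 203 kb, less than those in 20q13.13 (463 kb) and 4q13.3 (436 kb) and more than those in 8p21.2 (92.1 kb), 11q22.2 (48.3 kb) and 22q12.2 (7.67 kb). Between the first and the last broad region of a stretch, NRG1 and 22q12.2 had no narrow region, and the other 4 had 1 to 5. The narrow region 88.5 kb above the end of NRG1 lies outside that span. These are descriptions of single stretches in 1 pair of libraries, and differences between them were not tested.

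**Figure D5:**
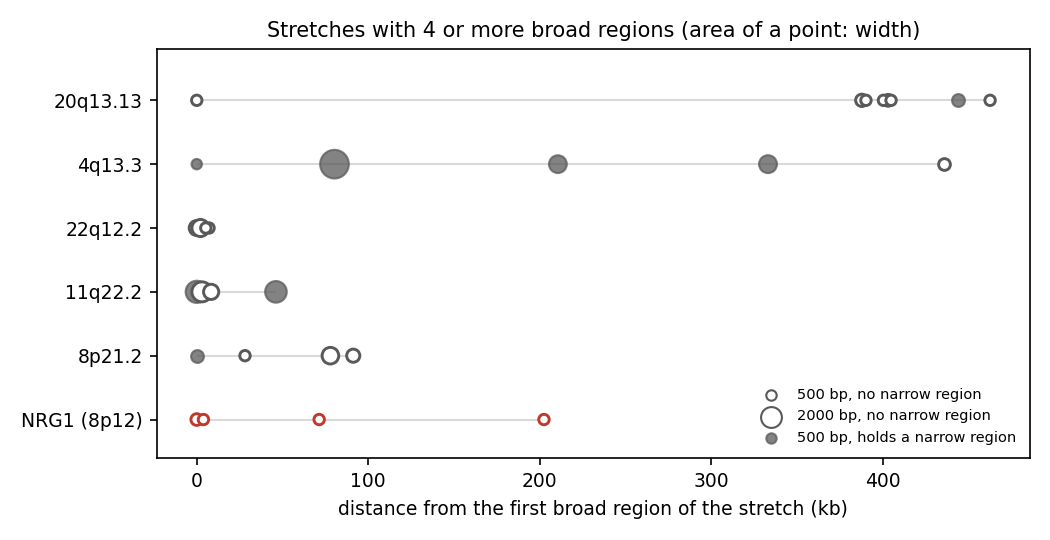
Broad regions in the 6 stretches with 4 or more of them, placed by distance in kb from the first region of each stretch. The area of a point stands for the width of the region, and filled points hold a narrow region. The 4 regions of NRG1 (red) are small and open and span 203 kb.

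Other genes of the pathway could be placed only by chromosome band, a coarser join that shows whether a region lies in the same band and not whether it lies at the gene. Of 17 such genes, 10 lay in a band with a broad region, beside 29.6% of all bands. The bands of these genes were longer, with a median of 4.9 Mb against 3.3 Mb over all bands, so the counts are not comparable without regard to length. By role, these were 5 of 6 ligand genes (BTC, EPGN, NRG2, NRG3 and NRG4), 2 of 4 receptor genes (EGFR and ERBB4), 1 of 2 protease genes (ADAM10), and 2 of 5 genes of adaptors and inhibitors (GRB2 and SHC1). EGF itself, the receptor genes ERBB2 and ERBB3, the protease gene ADAM17, the feedback inhibitor genes ERRFI1 and LRIG1 and the exchange factor gene SOS1 lay in bands without one. A region wider than 500 bp was in the bands of 3 of the 17 genes, beside 3.94% of all bands. This sets genes beside bands, and genes that share a band are not separate observations. The 17 genes lay in 16 bands, and 9 of these bands held a broad region. BTC and EPGN share band 4q13.3 and its 4 wide regions with EREG and AREG, and SHC1, an adaptor between receptors and RAS, lies in 1q21.3 with 2. For EREG and AREG the band count of 5 broad regions stood beside a nearest distance of 268 and 348 kb. For NRG1 the same band count of 5 stood beside 4 regions inside the gene.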

How the data were processed

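Per the labels' protocols, HMGB2 ChIP-seq libraries were made from 10 ng of precipitated DNA, 1 from RAS-infected senescent IMR90 cells and 1 from growing cells. Bowtie 0.12.9, HOMER 1.0 and hg19 are named in the submitters' processing notes, without their roles. How regions were called and filtered, the use of an input control and the depth were not given in the sources used here. Per the file headers, the 2 lists deposited by the authors give for each region its identifier, its chromosome and its first and last position in bp. Whether positions count from 0 or 1 is not stated, so a start could differ by 1 bp. Width was end minus start.

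The members and lists were chosen with earlier results of these data known. The text names all 5 ligand genes and every gene of the pathway list in a band with a broad region. The plan was to name neighbouring genes where a region lies between them and a ligand gene. Without hg19 positions of the neighbours this was not checked. Those named are from the RefSeq gene order beside EREG and AREG. CXCL3, DUSP4 and the pathway genes without a region were named after the values were seen. The hg19 bounds of the 5 genes were supplied as coordinates, and their lengths differ from those in the RefSeq table of GRCh38.p14 by 0 to 193 bp, and by 9063 bp for NRG1, which is longer in that table. A region counted when at least 1 bp lay within 5 kb of the gene. For a background, the hg19 autosomes, X and Y were divided into consecutive stretches as long as each gene with its 5 kb margins. For distances, stretches were as long as the gene alone. Assembly gaps were left in, which lowers the genome rates and shares and can lengthen the median distances. Limits for a count of 0 used 3 counts. For bands, regions were placed in hg19 bands and genes, by the RefSeq table, in GRCh38 bands of the same name. Promoter windows were the 250 bases before a RefSeq start, matched by symbol for 4 of the 5 genes. On simulated data the counting recovered 30 of 30 regions planted in the windows and 0 of those planted beyond them. No test between conditions was possible. Alternatives varied the window, the overlap, the part of each list and the band rule. Python 3.11.15 was used with pandas 2.3.3, numpy 2.4.6, matplotlib 3.10.9 and scipy 1.17.1, and bands and chromosome lengths came from circlize 0.4.16 and GenomeInfoDb 1.38.1 in R 4.3.3.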

Additional observations from a re-analysis of the deposited data

How the results depend on the processing

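The count of 4 broad regions, all in NRG1, was the same in the gene body alone, in windows of 10, 50 and 100 kb and by region midpoint. Merging regions within 1 kb could not change it, because the smallest gap in NRG1 was 3.28 kb. It was also the same in the first part of the list, up to its middle place, where the regions at places 172 and 173 stood near the cut. With regions over 500 bp only, it fell to 1 by construction. The count of narrow regions was 0 except with a 50 kb window, where 1 region at 1 gene (TGFA) was counted, and a 100 kb window, with 3 regions at 3 genes (AREG, TGFA and NRG1), since the window is larger. From gene start to region midpoint, the distance was 268.5 kb for EREG and 348.5 kb for AREG, against 268.2 and 348.2 kb edge to edge. The number of pathway genes in a band with a broad region was 10 of 17. It was 8 of the 14 genes whose bands differ in length between the builds by at most 100 kb. With fewer regions by construction, it was 5 of 17 with the first part of the list and 3 of 17 with regions over 500 bp. No paired analysis was possible because each condition has 1 library and no result comes from a test between samples. What an empty window can show is limited by the unknown depth.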
